A study of Homo sapiens with 2 samples.

Results

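CTTN, MYL12B, MYL12A, MYL9, ARPC1B, ARPC2, ARPC3, ARPC4, ARPC5 and PPP1R9B are 10 genes whose products build or regulate actin filaments and the myosin that pulls on them, out of 19974 protein-coding genes of chromosomes 1 to 22 and X. They were followed through 1 deposited list of 1645 ChIP-seq peaks, and 9 of those peaks had their summit, the position of highest signal, inside one of the 10 genes or at most 10 kb from it (the 10 kb rule). The genes were chosen by their fold enrichment as well as by function, CTTN, MYL12B and ARPC3 standing near the top of the list, so the folds and the count of genes with a peak are given as descriptions, without a test.

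The cells were F36P, a human erythroleukaemia line. In the AM-ERG group they carried the retroviral vector MSCV-PIG with AM-tagged ERG, so that ERG, a transcription factor of the ETS family, was overexpressed, and in the Vector group they carried MSCV-PIG alone. Both groups were kept in puromycin at 1 µg/ml for 4 days, and the antibody was against the tag. Each group had 1 library, the labels do not say whether the cells were a clone, and the list does not state from which library its peaks came, so no AM-ERG value could be set against a Vector value and no replicate error exists. The read depth was unknown. The peaks lay on 44 sequences, 1564 of them on chromosomes 1 to 22 and X.

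Branched actin networks are started by the ARP2/3 complex, which sits on the side of an existing filament and seeds a new one at an angle. It is switched on by nucleation-promoting factors of the WASP and WAVE families, and cortactin, the product of CTTN, binds the complex and the filament and steadies the branch. Contraction is driven by nonmuscle myosin II, whose regulatory light chains must be phosphorylated for it to assemble and work. In the red cell lineage these systems serve the last division and the expulsion of the nucleus, and the membrane skeleton holds short actin filaments. ETS factors bind DNA around the letters GGAA, or TTCC on the opposite strand.

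The sequences before the starts of 5 of the genes are shown first, because the strongest peaks with a known start lay on or beside them and because the genes differ in the letters an ETS factor is known to bind. Each is the 250 bases before the gene start in RefSeq on GRCh38.p14, read 5′ to 3′ on the gene's own strand. Capitals mark GGAA or TTCC. ARPC5, which had no peak, is shown for contrast.
MYL12B, chr18:3261883-3262132, plus strand: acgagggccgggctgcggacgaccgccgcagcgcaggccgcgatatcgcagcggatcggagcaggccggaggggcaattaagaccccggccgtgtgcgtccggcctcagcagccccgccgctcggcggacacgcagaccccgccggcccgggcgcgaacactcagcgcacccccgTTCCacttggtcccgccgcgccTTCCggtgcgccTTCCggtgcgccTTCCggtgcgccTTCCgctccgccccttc
ARPC3, chr12:110450338-110450587, minus strand: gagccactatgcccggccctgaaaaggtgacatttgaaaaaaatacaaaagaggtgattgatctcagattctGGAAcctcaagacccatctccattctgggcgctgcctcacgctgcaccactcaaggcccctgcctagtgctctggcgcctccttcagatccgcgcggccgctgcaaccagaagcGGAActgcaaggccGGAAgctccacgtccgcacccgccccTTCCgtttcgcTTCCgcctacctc
ARPC4, chr3:9792268-9792517, plus strand: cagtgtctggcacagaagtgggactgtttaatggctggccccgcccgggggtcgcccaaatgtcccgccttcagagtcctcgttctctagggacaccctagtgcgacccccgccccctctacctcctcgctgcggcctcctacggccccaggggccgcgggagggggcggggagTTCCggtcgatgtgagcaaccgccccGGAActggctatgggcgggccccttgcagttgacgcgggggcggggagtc
ARPC2, chr2:218216939-218217188, plus strand: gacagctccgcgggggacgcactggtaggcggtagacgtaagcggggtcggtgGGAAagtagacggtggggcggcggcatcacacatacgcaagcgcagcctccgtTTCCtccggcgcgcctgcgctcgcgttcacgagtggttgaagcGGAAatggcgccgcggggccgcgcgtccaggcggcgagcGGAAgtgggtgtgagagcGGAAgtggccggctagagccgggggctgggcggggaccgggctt
ARPC5, chr1:183635784-183636033, minus strand: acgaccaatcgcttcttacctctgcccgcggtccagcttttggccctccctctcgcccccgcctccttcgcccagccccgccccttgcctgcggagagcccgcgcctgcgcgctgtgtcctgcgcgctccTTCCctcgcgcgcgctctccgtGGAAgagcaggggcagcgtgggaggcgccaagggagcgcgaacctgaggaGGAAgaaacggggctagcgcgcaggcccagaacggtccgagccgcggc

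MYL12B held a short tandem repeat. Positions are counted back from the start, with -1 for the base just before it. The MYL12B window had TTCC beginning at -75, -53, -41, -29 and -17, and the last 4 of these were 12 bases apart. The unit TTCCGGTGCGCC stood 3 times in a row from -53 to -18. Of 15812 coding genes with such a window, 1 had a pair of adjacent copies of this unit on either strand, and that was MYL12B. The longer motif CCGGAAG, or CTTCCGG on the other strand, contains the core GGAA or TTCC and occurred 3 times in the MYL12B window, a number reached or passed by 36 of the 15812 windows (0.228%). ARPC3 had 5 cores and 1 copy of the longer motif, CCGGAAG from -52 to -46. ARPC2 had 5 cores and ARPC4 2, and neither had the longer motif.

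Of the other outermost windows, that of ARPC5 had 3 cores, none of which extended to CGGAA or TTCCG. The window before the outermost start of MYL12A had 1 core, and that of PPP1R9B had none. In all, 6 of the 7 members with a window in the table had GGAA or TTCC and 4 had CGGAA or TTCCG. The short core is common: 92.5% of the 15812 windows held it, while 37.7% held CGGAA or TTCCG. CTTN, MYL9 and ARPC1B were not in the table.

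**Figure D1:**
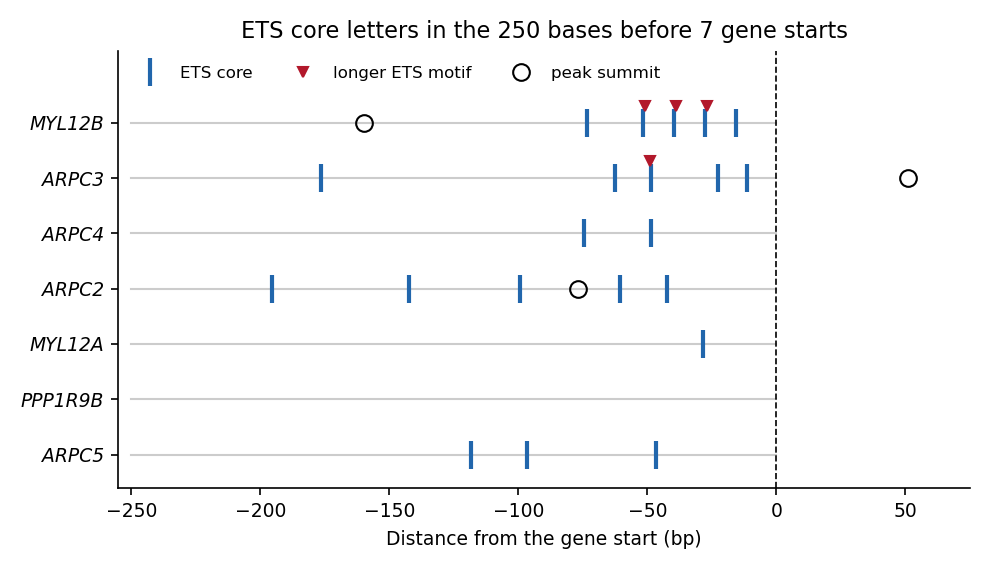
Positions of ETS core letters (blue bars) and of the longer ETS motif (red triangles) in the 250 bases before the outermost start of 7 genes, in bp from the start (dashed line), with the peak summit as a circle where it lay between -250 and 60 bp. MYL12B has 3 longer motifs at even spacing, ARPC3 has 1, and the other 5 genes have none.

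The letters were then counted over all genes. In 201 of the 15812 windows a summit of the list lay inside the window. The longer motif was in 58.2% of those 201, against 11.7% of all windows, and CGGAA or TTCCG was in 87.1% of the 201 and 37.7% of all. GGAA or TTCC was in 99.5% and 92.5%. Windows with a summit were also richer in G and C, with a median of 68.4% against 62.0% for all, and in CG dinucleotides, with a median of 25 against 17, and the part of base composition in the motif shares was not tested. Of the members' outermost windows, those of MYL12B and ARPC2 were among the 201. The MYL12B window had 75.6% G and C and 40 CG dinucleotides, and ARPC2 had 70.8% and 35. ARPC4 had 69.6% and 21, and ARPC3 58.8% and 16, but their summits lay past the start, outside the window. ARPC5, without a peak, had 72.0% and 31.

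Letters known from other blood or cytoskeletal factors were searched on both strands in the same windows. GATA or TATC was in 29.9% of windows with a summit and 39.9% of all, and TGTGGT or ACCACA, known from RUNX factors, in 7.46% and 9.12%. CACGTG, an E-box, was in 11.9% and 7.79%. The CArG box, bound by serum response factor, a known regulator of many actin genes, was in 0.498% and 1.16%. Among the members' outermost windows, MYL12B had 2 overlapping matches to GATA or TATC, MYL12A had 1 and also the E-box, and no window of the 7 held the RUNX letters or a CArG box.

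Of the 10 members, 7 had a peak by the 10 kb rule, where 9.58% of all coding genes did; the rule used these values, so nothing is read from this or the following shares. By the distance to an own end, 7 of 10 had a summit within 1 kb, against 5.86% of coding genes. A fold of 10 or more was counted for 4 members (0.26% of coding genes), one of them MYL12A through the peak of its neighbour; of the 9 peaks 3 had such a fold, against 2.07% of all listed peaks. The count of 3 or more peaks was met by 1 member, PPP1R9B (0.0701% of coding genes). The peaks just inside the limit were counted for PPP1R9B at 6111 bp, with a fold of 5.14, and for MYL12A at 5736 bp, and the nearest beyond it was 13993 bp from ARPC1B, with a fold of 3.78.

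Cortactin had the second highest fold of the 1645 peaks. The CTTN peak was at chromosome 11, 70398308 to 70398957, with its summit 169 bp inside the lower-coordinate end of the gene, which spans 70398529 to 70436575. The authors' fold enrichment was 15.7 and the −log10 of the q-value 46.1. At the summit 54 sequenced fragments overlapped (the pileup), where the local background, the number to be expected from the surroundings or a control, was 2.51; both were recovered from the deposited fold and p-value. An end of CTTN-DT, an annotated long noncoding RNA, was 236 bp from the summit, and no other listed peak lay within 100 kb. The peak ranked just above, with a fold of 23.3, was in RARA, and the one just below, with 15.3, was at an end of MIER1 shared with DNAI4.

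The ARP2/3 subunits came next in role. ARPC3 had the strongest of them, at chromosome 12, 110449936 to 110450450, with a fold of 13.6, rank 6 of the list, and a −log10 q of 39.8. Its summit was 51 bp inside the gene from the start, and the peak covered 113 of the 250 bases shown above, including all cores but the one at -178. The nearest of these cores was 61 bases from the summit. The pileup was 51 fragments on a background of 2.82. The peaks on either side of it in rank were at SCYL3 (fold 13.9) and FKBP1A (12.9).

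ARPC4 had a wider and lower peak, at chromosome 3, 9792248 to 9793431, of 1184 bp and a fold of 6.97. It covered all 250 bases shown above, but the nearest core in them was 477 bases from the summit. Its summit was 430 bp inside ARPC4 and nearer, at 63 bp, to an end of TADA3, which encodes a subunit of histone acetyltransferase complexes and overlaps the first part of ARPC4. The readthrough gene ARPC4-TTLL3 has an end 400 bp away, so this peak cannot be given to one gene. The ARPC2 peak, at chromosome 2, 218216926 to 218217409, had a fold of 5.42, a pileup of 20 fragments and a −log10 q of 6.98. Its summit was 77 bp before the start and 15 bases from the nearest GGAA of the window shown, and an end of the long noncoding RNA LOC101928487 was 74 bp away. ARPC1B and ARPC5 had no peak, and the nearest to ARPC1B, at 14.0 kb, was 160 bp outside BUD31.

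**Figure D2:**
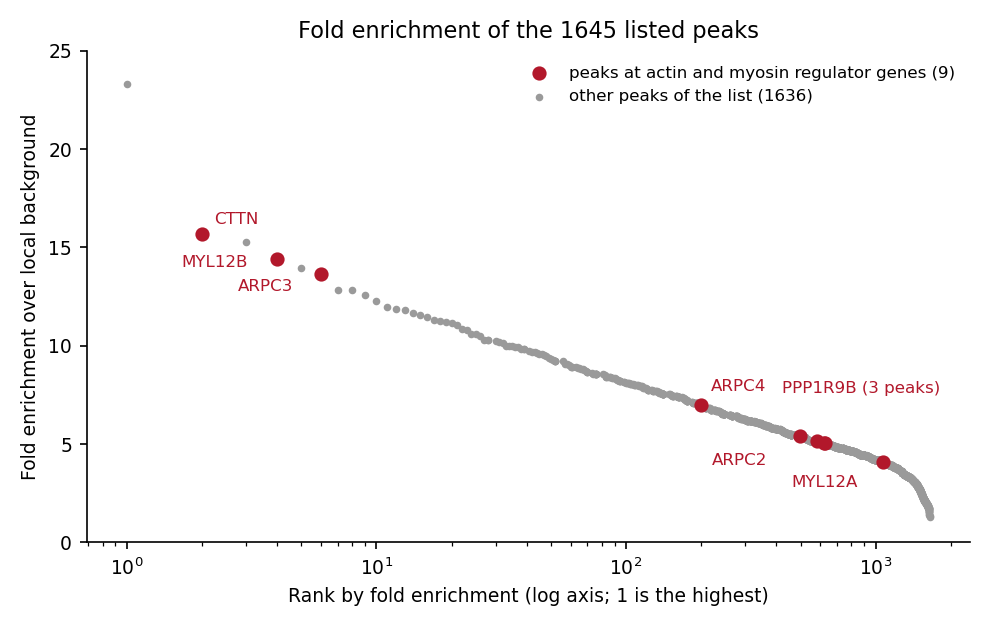
Fold enrichment of each listed peak against its rank (log axis), with the 9 peaks of the actin and myosin regulator genes in red and the other 1636 in grey. CTTN, MYL12B and ARPC3 hold ranks 2, 4 and 6, and the other 6 lie between rank 199 and rank 1074.

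The regulatory light chains MYL12A and MYL12B encode closely related proteins and lie side by side on chromosome 18, both read on the plus strand, with 5895 bp between the genes. The MYL12B peak, at 3261625 to 3262181, had a fold of 14.4, rank 4, and a −log10 q of 95.7, the second highest of the list. Its summit was 160 bp before the start and the peak covered all 250 bases shown, with the nearest TTCC 85 bases from the summit. The pileup, 125 fragments, was the highest of any member, and the local background, 7.74 fragments, was 2.20 times the median of 3.52, so that MYL12B has no peak when peaks over 2 times the median are left out. MYL12-AS1, an antisense noncoding gene, has an end 386 bp from the summit.

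MYL12A had its own, weaker peak 14326 bp away. It lay at 3247506 to 3248117, with a fold of 4.09, a pileup of 29 and a background of 6.34 fragments, 1.80 times the median. The summit was 165 bp inside the outermost start and 271 bp from an end of MYOM1, a sarcomeric M-band gene. It was also 154 bp before the second annotated start of MYL12A, whose 250-base window held 6 cores and 1 copy of CTTCCGG from -13 to -7. By fold the MYL12B peak was 3.52 times the MYL12A peak. The stronger peak also counts for MYL12A under the 10 kb rule, at 5736 bp from its end. MYL9, which encodes the smooth-muscle type regulatory light chain, had no peak, and the nearest was 54.5 kb away inside RAB5IF, with a fold of 4.50.

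**Figure D3:**
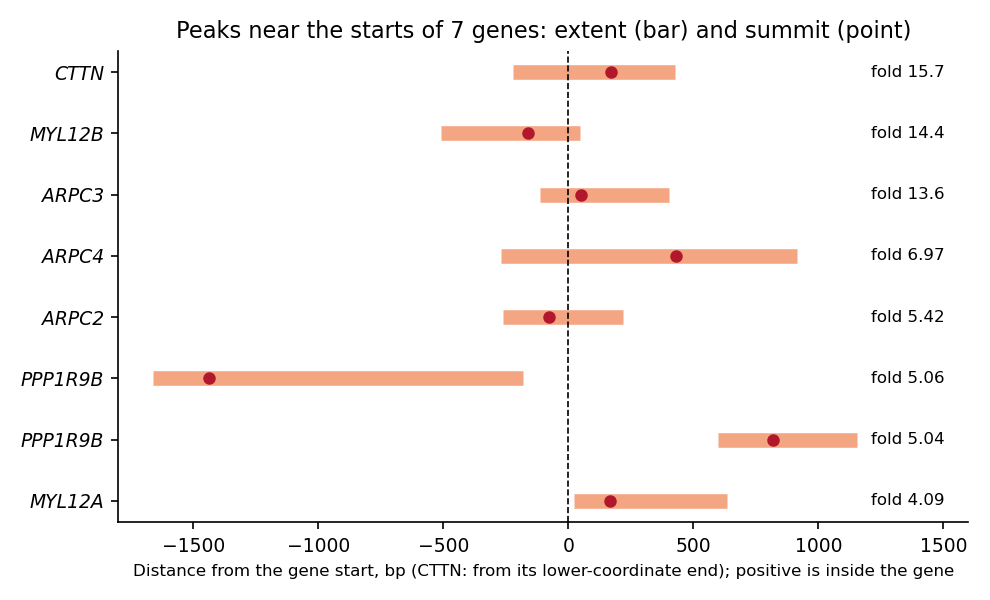
Extent (bars) and summit (points) of the 8 peaks within 3 kb of a start, in bp from the gene start (for CTTN, whose strand was not in the tables used, from its lower-coordinate end), ordered by fold. The summits of CTTN, MYL12B, ARPC3, ARPC4, ARPC2 and MYL12A lie within 430 bp of that point, and those of PPP1R9B lie 819 bp inside and 1439 bp before it.

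PPP1R9B encodes spinophilin, a scaffold that binds actin filaments and brings protein phosphatase 1 to them. It had 3 peaks on chromosome 17 of almost the same fold. The peak at 50150858 to 50152340 had its summit 1439 bp before the start, 29 fragments at the summit and a fold of 5.06. A second, at 50149523 to 50150080, was 819 bp inside the start, with 19 fragments and a fold of 5.04. The third, at 50127388 to 50128081, was 6111 bp beyond the other end of the gene, with a fold of 5.14 and 15 fragments. The first was 1483 bp wide and reached 70 of the 250 bases before the start, where no GGAA or TTCC was found. No summit of the 3 was within 1 kb of an end of another coding gene.

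The 9 peaks had a median fold of 5.42 (4.09 to 15.7) and a median pileup of 29 fragments (15 to 125), against 4.599 (1.27 to 23.3) and 21 (10 to 3977) for the 1636 other peaks. Their median width was 612 bp, against 390 bp, and their median background 2.97 fragments, against 3.52. Exact Poisson intervals of the pileups at 95% were turned into folds, as each limit plus 1 over background plus 1, with the background taken as known. They gave folds of 11.9 to 20.4 for CTTN, 12.0 to 17.1 for MYL12B and 10.2 to 17.8 for ARPC3. These 3 intervals overlapped, and the order of the 3 peaks was not tested. The intervals were 4.89 to 9.66 for ARPC4, 3.41 to 8.23 for ARPC2 and 2.78 to 5.81 for MYL12A. For PPP1R9B the widest interval, 3.02 to 8.27, was that of the peak 6111 bp beyond the gene. These intervals also overlap one another. Because the fold entered the choice of genes, no ranking of members is drawn from them. Such intervals cover counting error of 1 library and not the spread between cultures.

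**Figure D4:**
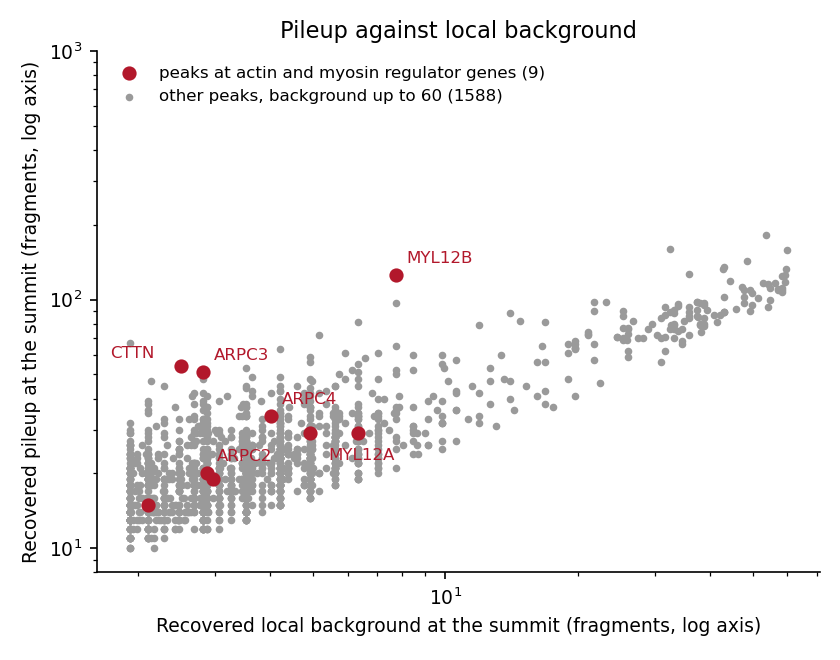
Recovered pileup against recovered local background at the summit, both in fragments on log axes, for the 9 peaks of the actin and myosin regulator genes (red; the unlabelled ones are PPP1R9B) and the 1588 other peaks with a background up to 60 (grey; 48 others are not drawn). Among the 9, MYL12B has the highest pileup, 125 fragments, at a background of 7.74, and CTTN and ARPC3 reach 54 and 51 fragments at backgrounds under 3.

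Most of the 9 peaks were at gene starts. For the 7 members whose strand was known, 6 of 8 peaks had their summit within 1 kb of the member's outermost start. Among the 1564 peaks of the autosomes and X, 50.5% were within 1 kb of a start of one of the 15812 coding genes with a strand, and 1.09% only within 1 kb of their other ends. At 2 of the 9 peaks, those of ARPC4 and MYL12A, an end of another coding gene was also within 1 kb, which held for 13.8% of the 1564. At 3 of them, those of CTTN, MYL12B and ARPC2, an end of a noncoding gene was, which held for 24.8% of the 1564. The 1564 include peaks at any distance from a gene, while the 9 were kept by the 10 kb rule. Nothing is therefore read from the differences between these shares.

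The wider actin and myosin machinery was read from 9 lists of 116 genes by role. Outside the 10 members, 20 of 106 genes had a peak by the 10 kb rule, which is 18.9%, beside 9.58% of all coding genes. The 95% Wilson interval, 12.6 to 27.3%, treats the 106 genes as independent random draws, which genes of chosen lists are not. These genes are long, with a median of 52703 bp against 24170 bp for coding genes, and a longer gene can hold more summits. The part of length in this share was not tested. By summits within 1 kb of an end the share was 12.3% (13 genes), beside 5.86%. None of the 106 reached a fold of 10. The lists were chosen with earlier results of these data known, so these shares and the interval are descriptions, and no test was made of them. The lists are not complete, and genes of the same kinds that they do not hold also had peaks. Examples, named after their values were seen, are ABI2 (fold 5.82, 257 bp outside the gene), WDR1 (5.55, 86 bp outside), ACTA2 (7.88, inside) and ACTG2 (8.22, 7133 bp outside at an end of DGUOK).

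In the ARP2/3 complex, 5 of 10 genes had a peak, each within 1 kb of an end. Of all coding genes 9.58% had a peak, and 5.86% had one within 1 kb of an end. Without the members, chosen with their values known, 2 of 5 ARP2/3 genes had a peak. Besides ARPC3, ARPC4 and ARPC2 the 5 were ACTR2 (fold 5.97, 246 bp inside its start) and ACTR3. These 2 encode the actin-related proteins that form the seed of the new filament. Of the listed activators, 5 of 18 had a peak, or 4 of 17 without CTTN. After CTTN the highest were WASL, which encodes N-WASP, with a fold of 8.83 at 184 bp before its start, and ABI1, a WAVE complex subunit, with 8.56 at 606 bp inside. The others were WASF1, at an end shared with CDC40, and WASHC1, where near-identical copies near chromosome ends make the placement of reads uncertain.

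The myosin lists were read against the same 9.58% of all coding genes. Among light chains 3 of 12 genes had a peak, the members MYL12A and MYL12B and also MYL5 (fold 3.64), at an end shared with ATP5ME. The MYL5 peak, with 11 fragments and a −log10 q of 1.76, was near the lowest of the deposited list (10 and 1.32). None of the 3 nonmuscle heavy chain genes had a peak, and none of the 14 listed genes for light chain kinases and related kinases had one. The Wilson interval for the 14, up to 21.5%, again treats listed genes as random draws. MYLK4, a light chain kinase gene that the list does not hold and that is named after its value was seen, had a peak of fold 5.17 inside the gene at an end of WRNIP1. In the list of protein phosphatase 1 and its actin-linked subunits, 2 of 10 had a peak: PPP1R9B and PPP1R12A (3.76), which encodes the targeting subunit of myosin phosphatase, 45 bp inside its start.

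The remaining lists were read against the same 9.58% of all coding genes. Filament turnover genes had peaks at 3 of 22 (13.6%): CAP1 (fold 8.91), whose product recycles actin monomers, and the profilin genes PFN2 (3.94) and PFN1 (3.06, at an end shared with ENO3). The −log10 q of PFN1, 1.59, was near the lowest of the deposited list, 1.32. Formins had 2 of 10, FMNL1 (4.87) and DIAPH3 (4.52). Crosslinkers and membrane linkers had 7 of 17, led by ZYX (9.49 at 269 bp before its start), EVL (7.45) and VASP (4.996 and 4.29), which encode focal adhesion and filament-elongation proteins of shared complexes. The rest were FLNA, ACTN1, TPM1 and TPM3. In that list 2 of the 7 genes, ZYX and ACTN1, had a summit within 1 kb of an end. All 5 ARP2/3 genes with a peak did, but ARPC2, ARPC3 and ARPC4 are members chosen with their values known. The counts of these lists are therefore not compared.

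**Figure D5:**
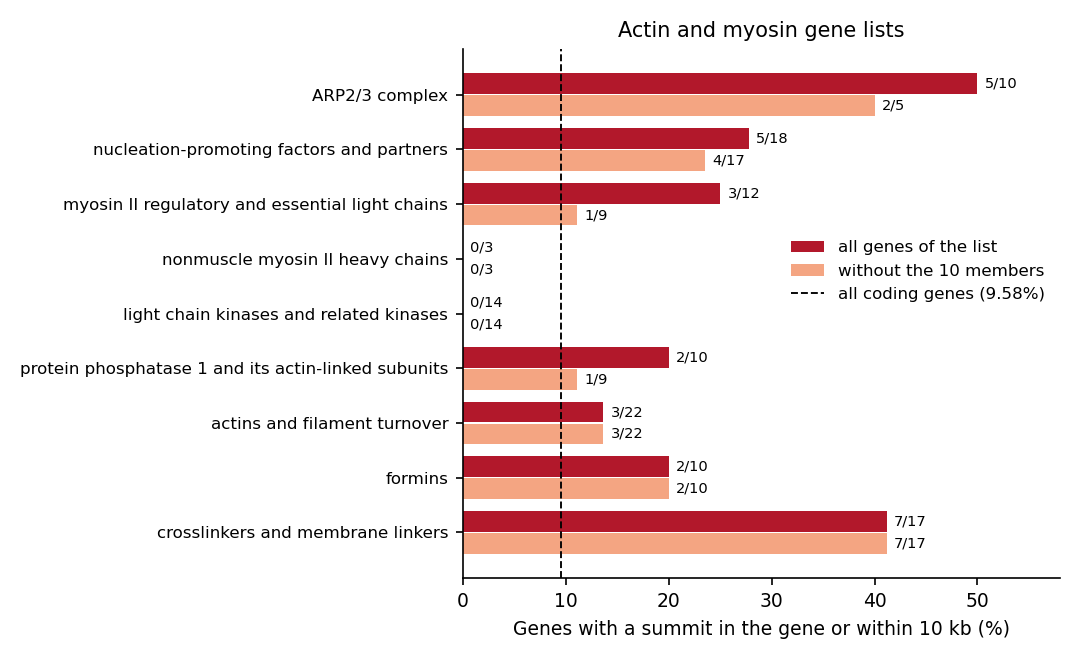
Share of genes with a peak by the 10 kb rule for 9 lists of actin and myosin genes, with all genes of the list (dark bars) and without the 10 members (light bars); the fractions give genes with a peak over genes in the list, and the dashed line is the share of all coding genes, 9.58%. The ARP2/3 complex has 5 of 10, crosslinkers and membrane linkers 7 of 17, and heavy chains and light chain and related kinases none.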

How the data were processed

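Per the labels' protocols, F36P cells were fixed in 1% formaldehyde, a digestion of 20 minutes with micrococcal nuclease fragmented the chromatin, and each precipitation took 10 µg. Bowtie2, MACS2 and deepTools and the build hg38 are named in the submitters' processing notes without versions, and the sources used here do not give their settings. The deposited list gives for each peak a score, a fold enrichment (ratio) over local background, the −log10 of the p-value and q-value, and the summit; these are the authors' values, used only to describe and rank peaks. The largest q was 0.0474.

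Pileup and background at each summit were recovered from fold and −log10 p (fold as pileup plus 1 over background plus 1, p as a Poisson tail), which gave back the deposited p for 1645 of 1645 peaks within 0.001; this recovery was tested on simulated data. Genes, starts and sequences came from RefSeq (GRCh38.p14). Strand was known for 15812 of 19974 coding genes and 7 of 10 members. Exons and introns were not separated.

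A few results are not reported here. The members and lists were chosen with earlier results of these data known. Named were all members, up to 3 list genes by fold, the genes ranked beside the 3 strongest member peaks and genes sharing an end. Genes that had a peak in a list but were not among its 3 highest by fold, members counted, were named without values; a few genes outside the lists are named as chosen after their values were seen. Alternatives covered the window, threshold, background and motif letters. The software was Python 3.11.15 with SciPy 1.17.1, numpy 2.4.6, matplotlib 3.10.9 and pandas 2.3.3.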

Additional observations from a re-analysis of the deposited data

How the results depend on the processing

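No paired analysis was possible because there was 1 library per group. The 7 of 10 members with a peak were recounted in 9 settings, beside the share of all coding genes with a peak. They were 5 with summits in the gene only (5.002% of coding genes) and 8 within 50 kb (17.7%), where ARPC1B was added. Without the 250 peaks with a background over 2 times the median they were 6 (9.232%). There MYL12B lost its peak, and MYL12A its stronger one. In the other 6 settings they were 7, while the share of coding genes lay between 4.956% and 9.663%. The members were chosen with their values known, so an unchanged count of members is not read as stability. The 20 of 106 further genes became 33 within 50 kb (17.7% of coding genes), 11 among the upper 50% of peaks by −log10 q (4.96%) and 10 among the upper 50% by fold (5.68%), as wider windows and fewer peaks imply. The strongest fold was 4.09 for MYL12A by the peak nearest its start, and for PPP1R9B 5.06 by −log10 q and 5.04 by the start. Peaks at a start were 5 within 500 bp and 7 within 3 kb, against 6 within 1 kb of the start. Within 1 kb of either end they were 7. That last 7 includes CTTN, whose strand was not known and which is not among the 6. Of the 1564 peaks, 50.5% were within 1 kb of a coding gene's start and 61.8% within 1 kb of either end of one. Shares of all peaks at 500 bp and 3 kb were not counted, and nothing is read from these counts. Windows with the ETS core were 4 with CGGAA or TTCCG, against 6. Read numbers were unknown, so the weakest site this list could hold is not known.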

Other observations

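The share of windows holding a summit differed with the number of copies of CCGGAAG or CTTCCGG. A summit lay in 6 of 36 windows with 3 or more copies (16.7%), in 30 of 258 with 2 (11.6%), in 81 of 1561 with 1 (5.19%) and in 84 of 13957 with none (0.602%). The median fold of the peaks was 8.73 (3.77 to 14.4) with 3 or more copies, 5.07 (2.73 to 9.24) with 2, 5.45 (2.73 to 12.6) with 1 and 5.0 (2.66 to 11.7) with none. The highest fold of all 201 windows, 14.4, was that of MYL12B. The group with 3 or more copies holds 6 peaks, and without MYL12B, which was chosen for its fold, their median was 7.29 (3.77 to 12.9, 5 peaks). The base composition of these groups of windows was not compared. These values were looked at after the MYL12B repeat had been seen.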
